A study of Mus musculus with 6 samples.

Results

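The BCL2 family of survival and death genes was examined in macrophages isolated from young and aged mouse skin wounds. The 10 members were chosen by gene name, each being a row of the count table whose symbol was *Bcl2*, *Bcl2l1*, *Mcl1*, *Bcl2a1b*, *Bcl2a1d*, *Bcl2l11*, *Bid*, *Bad*, *Bax* or *Bak1*. All 10 were present among the 15168 genes of the table. Counts were high enough to test 9 of them, alongside 11878 genes in all, and *Bak1* was too low to be tested.

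The study asked how wound macrophages differ with age. Live cells carrying CD45, CD11b, F4/80 and CD64 were sorted from full-thickness wounds of the dorsal skin at Day 3 post wounding. The mice were wild-type C57BL/6J females that had received 2 wounds of 10 mm each under isoflurane, with buprenorphine for pain relief in both ages. The young group is labelled 12 weeks (from a cohort of 8 to 12 weeks) and the aged group 24 months. The aged cohort spans 22 to 26 months in the labels and 22 to 24 months in the paper. There were 3 samples per age, named set A, B and C. Each sample was a bulk population, so a lower transcript level per cell and a smaller share of cells carrying that transcript cannot be told apart. The labels do not say whether the samples came from separate animals or from pools, so the p-values measure the spread between these 6 samples only. With 3 samples per age an exact permutation test of a single value cannot give a two-sided p below 0.1, and the tests below therefore come from an edgeR quasi-likelihood fit across all genes with Benjamini-Hochberg adjustment.

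BCL2 proteins decide whether the outer mitochondrial membrane stays intact. The guardians (BCL2, BCL-XL, MCL1 and A1) hold the pore-forming effectors BAX and BAK in check, and BH3-only proteins such as BIM, BID and BAD release or directly engage those effectors when a cell is stressed or deprived of growth factors. Once the pore opens, cytochrome c escapes and caspases are activated. Myeloid cells are known to lean on MCL1 and on A1, the product of the *Bcl2a1* genes, which inflammatory signals induce through NF-κB.

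The libraries held 15270103 to 17927483 counts each, and levels are given as CPM (counts scaled to a common library size), on which 1 count was worth 0.0553 to 0.0701 CPM. The markers used in the sort were present in every sample. *Fcgr1*, which encodes CD64, differed little with age (log2 fold change 0.15, adjusted p = 0.52 in edgeR). *Ptprc*, which encodes CD45, did not pass (log2 fold change 0.26, adjusted p = 0.386 in edgeR). *Adgre1*, which encodes F4/80, was lower in aged cells (log2 fold change −0.69, adjusted p = 0.0293), a call that held in 2 of the 6 fits that left out a sample. *Itgam*, which encodes CD11b, was higher (log2 fold change 0.99, adjusted p = 0.00735) and passed in all 6. With all 6 samples, 1156 genes rose and 947 fell, and these counts depended on single libraries. Without young set C, 151 rose and 67 fell, without young set B 435 and 330, and without aged set C 351 and 194. The set A library of each age stood apart from the other 2 of its age, with a chi-square of the counts per gene of 115 and 120 in young and 121 and 95.3 in aged cells, against 31.9 between young B and C and 45.7 between aged B and C. Without young set A the counts were 1574 and 1128, and without aged set A 863 and 522.

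Before the values, the likeness of the *Bcl2a1* genes has to be seen, because it limits how well short reads can be assigned to each of them. The mouse carries several neighbouring copies on chromosome 9, and 3 of them were in the table, namely the members *Bcl2a1b* and *Bcl2a1d* and the further copy *Bcl2a1a*. The first 90 coding bases of each, from the GENCODE M21 transcripts (mm10), are shown with the positions that vary among the copies in capitals.

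Bcl2a1a: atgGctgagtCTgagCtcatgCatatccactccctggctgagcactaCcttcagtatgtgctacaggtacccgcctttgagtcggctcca
Bcl2a1b: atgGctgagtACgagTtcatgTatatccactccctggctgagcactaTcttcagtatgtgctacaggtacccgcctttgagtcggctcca
Bcl2a1d: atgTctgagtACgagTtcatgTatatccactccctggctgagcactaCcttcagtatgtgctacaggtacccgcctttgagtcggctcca

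Over all 516 coding bases, *Bcl2a1b* and *Bcl2a1d* were 98.84% identical (6 differences). *Bcl2a1a* was 97.87% identical to *Bcl2a1b* and 98.64% identical to *Bcl2a1d*. Of the stretches of 150 bases, the length of one read, 85.8% in the *Bcl2a1b* transcript, 71.8% in *Bcl2a1a* and 69.7% in *Bcl2a1d* occurred in that copy alone. The remaining stretches can be split between copies only by the authors' counting, so the values of single copies are uncertain and their sum is given beside them.

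Among the 9 tested members, 4 were higher in aged macrophages and 0 were lower at an adjusted p under 0.05, while 17.7% of all tested genes passed in either direction, 9.73% as higher and 7.97% as lower. The members that rose were the guardians *Bcl2a1d*, *Bcl2a1b* and *Bcl2l1* and the BH3-only gene *Bcl2l11*. *Bcl2a1d* and *Bcl2a1b* are near-identical copies that share reads, so their calls are not independent. The counts of members depended on single samples, with 1 member higher without young set C and 1 lower without young set A. A change of more than 2-fold was shown by *Bcl2a1d* and *Bcl2l11*, both higher, against 4.59% of all tested genes that passed as higher and 4.2% that passed as lower by that much. The median log2 fold change of the 9 members was 0.35, beside −0.02 over all tested genes. Young and aged samples did not overlap for 6 of the 9 members (38.2% of all tested genes), 4 with aged above and 2 with aged below (19.2% and 19% of all tested genes). Of the members lower in aged cells, *Bad* alone had an unadjusted p under 0.05, DESeq2 called 0 and limma-voom called 1. The plot of CPM by sample shows all 10 members.

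**Figure D1:**
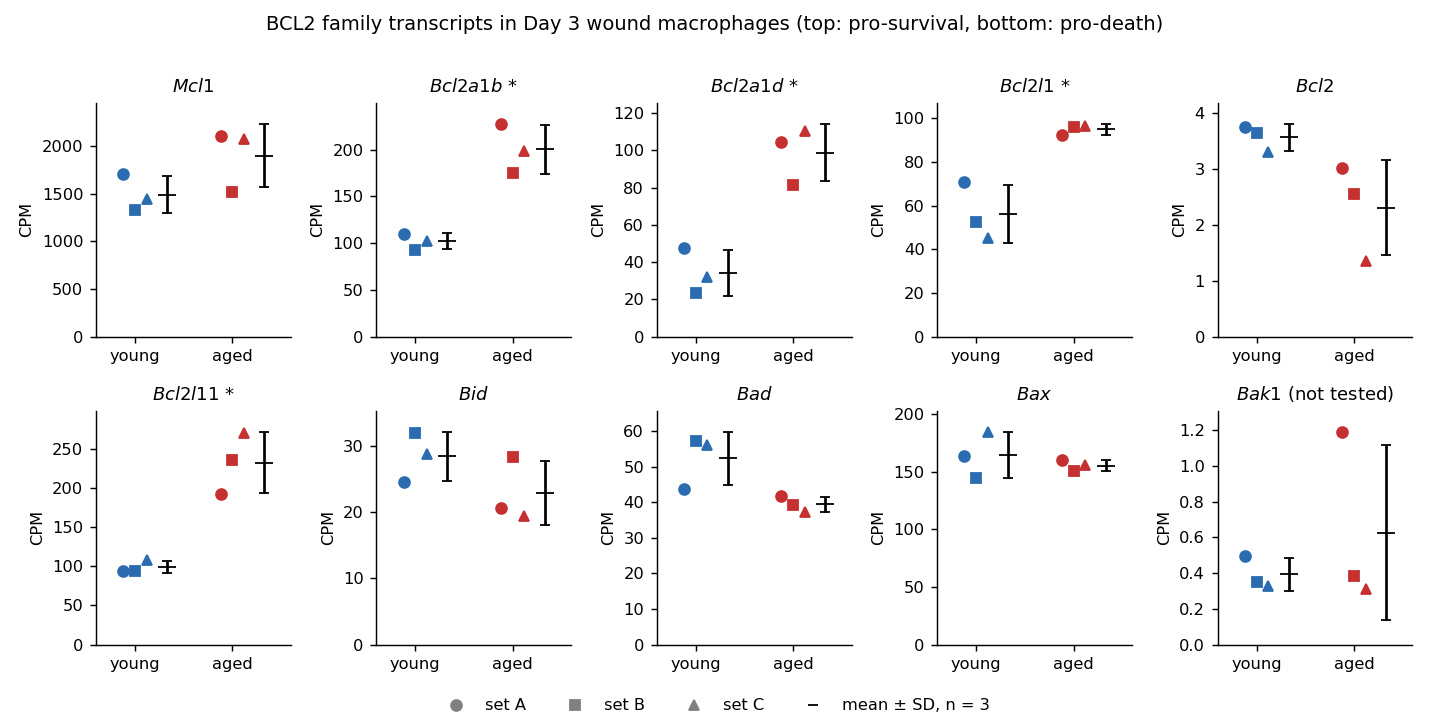
CPM of each BCL2 family member in the 3 young (blue) and 3 aged (red) samples, with marker shape for the set and the mean ± SD (n = 3) in black; an asterisk marks an adjusted p under 0.05 in edgeR. Aged samples lie above all young samples for *Bcl2a1b*, *Bcl2a1d*, *Bcl2l1* and *Bcl2l11*, and each gene has its own axis starting at 0.

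*Mcl1* (mm10 chr3:95658788-95663176, plus strand) encodes the short-lived guardian on which myeloid cells depend. It was present at 1703, 1331 and 1443 CPM in young sets A, B and C, and at 2112, 1519 and 2071 CPM in the aged sets. Aged set B fell within the young range, so the groups overlapped. The difference did not pass the test (log2 fold change 0.35, 95% interval −0.09 to 0.79, adjusted p = 0.237 in edgeR). Per kilobase of its longest coding transcript, *Mcl1* was the most abundant member in both groups, at 436.6 ± 55.8 CPM per kilobase in young cells and 556.1 ± 96.8 in aged cells (SD, n = 3).

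*Bcl2a1b* (chr9:89199209-89207827, plus strand), a gene for the inducible guardian A1, was at 110.1, 92.99 and 101.9 CPM in young cells and at 227.2, 174.6 and 198.5 CPM in aged cells. Aged and young samples were fully separated. The rise was close to 2-fold (log2 fold change 0.98 ± 0.17 (SE), adjusted p = 0.00761 in edgeR, n = 3 per age). Part of this gene cannot be separated from a second annotated gene. *Gm29094* on the same strand shares 401 of the 817 exon bases of *Bcl2a1b* (49.1%). It received 60, 68 and 70 counts in young sets A to C and 75, 117 and 157 in the aged sets.

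*Bcl2a1d* (chr9:88723285-88731914, minus strand), the second A1 gene among the members, was at 47.46, 23.47 and 31.77 CPM in young cells and at 104.2, 81.39 and 110.6 CPM in aged cells. The groups did not overlap, although young set A was well above young set B. Its log2 fold change of 1.53 ± 0.25 (SE) had the largest size of any member (adjusted p = 0.00649 in edgeR). *Bcl2a1a* (chr9:88956900-88962419, plus strand) was lower in level but also rose, from 15.1 ± 3.87 to 29.93 ± 8.72 CPM (SD, n = 3 per age; log2 fold change 0.99, adjusted p = 0.0267 in edgeR, a call that held in 2 of the 6 fits that left out a sample).

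With the counts of the 3 *Bcl2a1* copies added together before the fit, the question of how reads were split between them no longer enters. Reads assigned to *Gm29094* are not in this sum. The sum was 176.9, 128.2 and 147.8 CPM in young cells and 371.4, 281.1 and 333.8 CPM in aged cells. All aged sums exceeded all young sums. The rise was 1.12 ± 0.19 on the log2 scale (SE, adjusted p = 0.0067 in edgeR), and without young set C it was 1.11 with an adjusted p of 0.0522. *Bcl2a1d* supplied 26.8%, 18.3% and 21.5% of these counts in young sets A to C and 28.1%, 29.0% and 33.1% in the aged sets, a share that rests on how reads were divided among the copies.

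*Bcl2l1* (chr2:152780668-152831728, minus strand) encodes BCL-XL, a long-lived guardian. It was at 70.69, 52.45 and 45.18 CPM in young cells and at 92.12, 96.17 and 96.42 CPM in aged cells. The aged samples were close together and above all young samples, while the young samples were spread more widely. The log2 fold change was 0.76 ± 0.19 (SE, adjusted p = 0.0238 in edgeR), and the call was lost when young set B, young set C or aged set C was left out (adjusted p = 0.0809, 0.111 and 0.08).

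*Bcl2* itself (chr1:106538178-106714274, minus strand), the founding guardian, was scarce. It was at 3.761, 3.637 and 3.303 CPM in young cells and at 3.012, 2.548 and 1.359 CPM in aged cells. All aged samples were below all young samples, with aged set C lowest. The difference did not pass the test (log2 fold change −0.63, 95% interval −1.42 to 0.15, adjusted p = 0.233 in edgeR), and its size was −0.36 without aged set C.

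*Bcl2l11* (chr2:128126038-128162547, plus strand) encodes BIM, a BH3-only protein that binds every guardian and is known to be induced when growth factor signalling is withdrawn. It was at 94.31, 94.22 and 107.7 CPM in young cells and at 191.9, 235.2 and 270 CPM in aged cells. The young samples were nearly equal and the lowest aged sample lay well above them. The log2 fold change was 1.24 ± 0.18 (SE, adjusted p = 0.00379 in edgeR). Of the 4 members that rose, it alone passed whichever of the 6 samples was left out (adjusted p between 0.00431 and 0.0309).

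The other BH3-only members did not pass the test. *Bad* (chr19:6941861-6951899, plus strand), whose protein is inactivated by growth factor signalling, was at 43.75, 57.14 and 55.95 CPM in young cells and at 41.61, 39.3 and 37.24 CPM in aged cells. The groups did not overlap, but young set A lay close to the aged samples. The log2 fold change was −0.41 (95% interval −0.78 to −0.04, adjusted p = 0.109 in edgeR), with an adjusted p of 0.0438 without young set A and of 0.0308 in limma-voom with quality weights. On the opposite strand, *Gpr137* covers 20.5% of the *Bad* exon bases, and the strand of the reads is not marked by this kind of library.

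*Bid* (chr6:120891930-120916853, minus strand), which is cut by caspase-8 and carries death receptor signals to the mitochondrion, was at 24.61, 31.97 and 28.8 CPM in young cells. It was at 20.67, 28.4 and 19.52 CPM in aged cells. Aged set B lay within the young range, and the difference did not pass (log2 fold change −0.32, 95% interval −0.75 to 0.12, adjusted p = 0.286 in edgeR). *Bcl2l13* on the opposite strand covers 17.7% of the *Bid* exon bases.

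The effector *Bax* (chr7:45461697-45466898, minus strand), which forms the mitochondrial pore, was at 163.6, 145 and 184.6 CPM in young cells and at 160.2, 150.6 and 155.6 CPM in aged cells. All aged samples lay within the young range. Its log2 fold change was −0.08, with a 95% interval of −0.43 to 0.27 that leaves room for neither a 2-fold rise nor a 2-fold fall (adjusted p = 0.751 in edgeR). The sign turned to 0.01 without young set C.

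*Bak1* (chr17:27019810-27029009, minus strand), the second pore-forming effector, received 9, 6 and 5 counts in young cells and 17, 6 and 5 in aged cells. Aged set A was the highest and the other samples were alike. At this depth a difference was not detectable. Without the filter on low counts, the log2 fold change was 0.65 with a 95% interval of −1.02 to 2.31 (adjusted p = 0.62 in edgeR). The annotated entries of *Ggnbp1* on the opposite strand cover 18.2% and 7.35% of the *Bak1* exon bases.

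**Figure D2:**
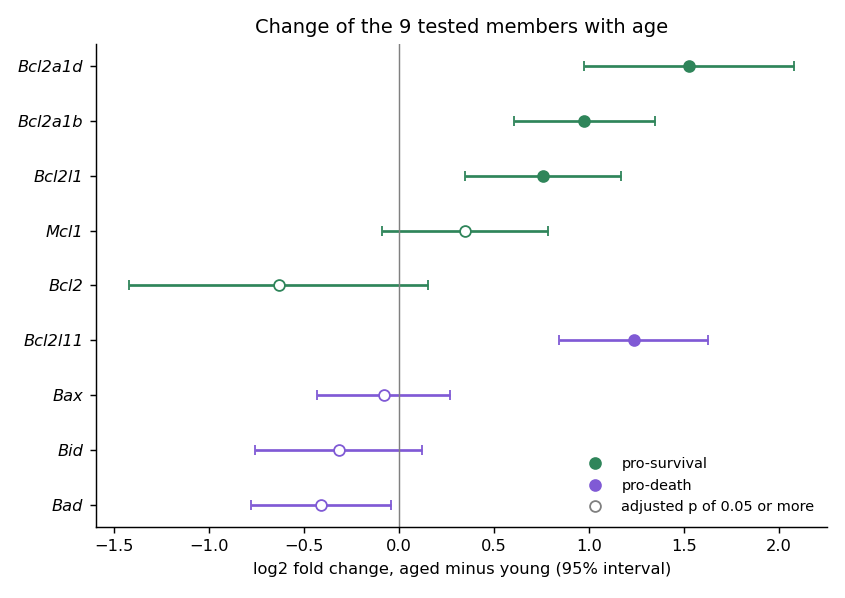
Log2 fold change (aged minus young) of the 9 tested members with its 95% interval, guardians in green and pro-death genes in purple, filled where the adjusted p was under 0.05. The intervals of *Bcl2a1d*, *Bcl2a1b*, *Bcl2l1* and *Bcl2l11* lie above 0, that of *Bad* lies just below 0 without passing after adjustment, and the other 4 span 0.

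By role, 3 of the 5 tested guardians rose, beside 9.73% of all tested genes, with a median log2 fold change of 0.76. Among them *Bcl2a1b* and *Bcl2a1d* share reads, so their rises are not independent. Without young set C, 0 guardians passed as higher. Of the 4 tested pro-death genes only *Bcl2l11* rose, and their median was −0.20. *Bcl2* moved in the opposite direction to the other guardians but did not pass. The difference between the roles was not tested.

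Levels can be compared between genes per kilobase of the longest coding transcript. *Mcl1* came first in both ages. *Bax* was above *Bcl2a1b* in every young sample (167.2 to 212.9 against 113.8 to 134.7 CPM per kilobase), and *Bcl2a1b* was above *Bax* in every aged sample (213.7 to 278.1 against 173.7 to 184.8). *Bcl2a1d* followed, at 39.7 ± 14.1 CPM per kilobase in young and 114 ± 17.8 in aged cells (SD, n = 3). *Bcl2l1* stood at 21.9 ± 5.12 CPM per kilobase in young cells, where its samples overlapped those of *Bcl2l11* (19.6 ± 1.54), and at 37.0 ± 0.94 in aged cells, below every *Bcl2l11* sample (46.1 ± 7.78). The overlap in young cells rests on the transcript lengths used, since on CPM *Bcl2l11* was above *Bcl2l1* in every sample. *Bid* was at 13.0 ± 1.69 and 10.4 ± 2.21 CPM per kilobase. *Bcl2* and *Bak1* were lowest, averaging 0.408 and 0.214 CPM per kilobase over the 6 samples. Within the pro-death group, *Bax* was thus far more abundant per length than *Bak1*.

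Per kilobase, the order of *Bcl2l11* and *Bad* differed between the ages. In young cells *Bcl2l11* stood at 18.73, 18.71 and 21.38 CPM per kilobase and *Bad* at 28.54, 37.27 and 36.5. In aged cells *Bcl2l11* stood at 38.1, 46.7 and 53.62, and *Bad* at 27.15, 25.63 and 24.3. *Bcl2l11* was below *Bad* in each young sample and above it in each aged sample. This order rests on the transcript lengths used, since on CPM *Bcl2l11* was above *Bad* in all 6 samples. Of the summed BH3-only transcript (*Bcl2l11*, *Bid* and *Bad*) per kilobase, *Bcl2l11* made up 32.0%, 26.5% and 30.1% in young sets A to C and 51.0%, 54.7% and 61.8% in the aged sets. On CPM the same shares were 58.0%, 51.4% and 56.0% in young and 75.5%, 77.7% and 82.6% in aged sets, so the level of the share depended on the scale while the ages were separated on both.

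The make-up of the guardians changed as well. *Mcl1* made up 69.6%, 70.6% and 70.2% of the summed guardian transcript per kilobase in young sets A to C, and 58.7%, 56.2% and 59.7% in the aged sets. *Bcl2a1b* and *Bcl2a1d* together went from 26.5%, 25.6% and 26.9% to 37.9%, 39.0% and 36.6%. Both shares were separated between the ages. On CPM, *Mcl1* made up 88.4 ± 0.40% in young and 82.6 ± 1.35% in aged cells, and the *Bcl2a1* members 8.04 ± 0.26% and 13.1 ± 0.59% (SD, n = 3), also without overlap.

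The sum of the 5 guardians was 716, 551.3 and 601.8 CPM per kilobase in young cells and 1053, 790.4 and 1015 in aged cells, with no overlap. The sum of the 5 pro-death genes was 247.4, 237.9 and 284.1 CPM per kilobase in young cells and 260, 259.2 and 266.5 in aged cells, within the young range. The ratio of the sums was 2.44 ± 0.40 in young cells and 3.64 ± 0.52 in aged cells (SD, n = 3). This rise depends on the scale. The log2 difference of the ratio was 0.58 per kilobase but 0.05 on CPM, where the long *Bcl2l11* transcript weighs more in the pro-death sum. Without *Mcl1* the difference was 1.06, and without the *Bcl2a1* members it was 0.33. The ratio is a description with no test. On these scales and member sets its difference was above 0, but its size ranged from 0.05 to 1.06.

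**Figure D3:**
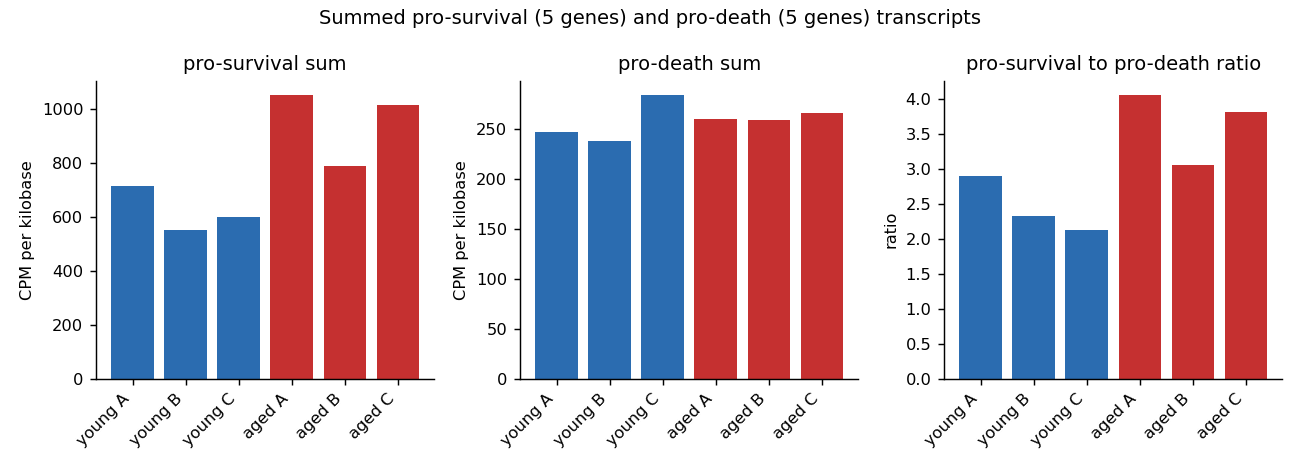
Summed CPM per kilobase of the 5 guardians and of the 5 pro-death genes, and the ratio of the sums, in each of the 3 young (blue) and 3 aged (red) samples; bars start at 0. Guardian sums were 551.3 to 716 in young and 790.4 to 1053 in aged samples, while pro-death sums overlapped; on CPM without the length correction the log2 difference of the ratio was 0.05.

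*Bcl2l11* was also set against single guardians, per kilobase. For every 100 *Mcl1* there were 3.76, 4.81 and 5.06 *Bcl2l11* in young sets A to C and 6.17, 10.5 and 8.85 in the aged sets, without overlap. Against *Bcl2a1b* and *Bcl2a1d* together, the ratio was 0.0987, 0.133 and 0.132 in young cells and 0.0955, 0.152 and 0.145 in aged cells, with aged set A below all young samples. Against *Bcl2l1* the ages overlapped too, at 0.937 ± 0.268 in young and 1.25 ± 0.18 in aged cells (SD, n = 3). *Bcl2l11* was thus separated by age relative to *Mcl1* but not relative to the guardians that rose with it. These ratios were not tested.

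For each of the 4 risen members 1 promoter sequence is shown. They run from 250 bases before to 50 bases after the RefSeq start (GRCm38.p6), 5′ to 3′ on the gene's strand. Capitals mark matches to the letters GAGGAAGT (a core of PU.1 sites, PU.1 being the factor that specifies myeloid cells) in the *Bcl2a1* promoters, to GTAAACA (forkhead, the class to which FOXO3 belongs) in the *Bcl2l11* promoter and to an NF-κB motif, on the reverse strand, in the *Bcl2l1* promoter. They lie at chr9:89199023-89199322 on the plus strand (*Bcl2a1b*), chr9:88731801-88732100 on the minus strand (*Bcl2a1d*), chr2:128125788-128126087 on the plus strand (*Bcl2l11*, the first of its listed promoters) and chr2:152830668-152830967 on the minus strand (*Bcl2l1*, the promoter with the match among those listed).

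Bcl2a1b: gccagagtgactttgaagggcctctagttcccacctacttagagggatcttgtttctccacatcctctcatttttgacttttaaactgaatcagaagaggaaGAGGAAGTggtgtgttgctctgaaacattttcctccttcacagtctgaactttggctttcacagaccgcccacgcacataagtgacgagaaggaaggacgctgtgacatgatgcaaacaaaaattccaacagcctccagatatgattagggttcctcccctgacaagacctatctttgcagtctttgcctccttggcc
Bcl2a1d: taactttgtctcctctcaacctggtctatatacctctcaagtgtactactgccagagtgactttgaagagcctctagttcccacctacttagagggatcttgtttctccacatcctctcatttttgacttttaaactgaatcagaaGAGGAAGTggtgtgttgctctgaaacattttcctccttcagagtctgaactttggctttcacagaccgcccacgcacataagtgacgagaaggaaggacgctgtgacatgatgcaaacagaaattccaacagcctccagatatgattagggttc
Bcl2l11: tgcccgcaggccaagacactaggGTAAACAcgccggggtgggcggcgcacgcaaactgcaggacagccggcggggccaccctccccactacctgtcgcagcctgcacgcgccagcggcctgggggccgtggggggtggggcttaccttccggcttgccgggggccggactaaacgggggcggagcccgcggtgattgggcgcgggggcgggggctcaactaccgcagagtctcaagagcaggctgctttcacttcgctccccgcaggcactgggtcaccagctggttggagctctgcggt
Bcl2l1: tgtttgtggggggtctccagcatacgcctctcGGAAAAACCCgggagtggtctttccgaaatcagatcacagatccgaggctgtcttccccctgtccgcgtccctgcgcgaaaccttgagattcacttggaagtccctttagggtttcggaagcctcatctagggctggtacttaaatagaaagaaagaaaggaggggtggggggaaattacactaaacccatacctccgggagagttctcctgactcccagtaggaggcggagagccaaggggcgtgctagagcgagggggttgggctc

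Searched on both strands, GAGGAAGT occurred in 3.2% of 32851 promoters of this length and GTAAACA in 3.65%. The PU.1 letters lay 148 bases before the start in *Bcl2a1b* and 104 bases before it in *Bcl2a1d*, and they were chosen after the *Bcl2a1* sequences had been read. These promoters were 98.8% identical over 250 aligned bases, so their matches do not count as separate ones. The PU.1 letters also occurred in the promoter of *Bak1* and in 1 listed promoter of *Bad*, neither of which was among the risen members. The letters of an NF-κB motif, found in 1.63% of promoters, occurred 218 bases before the start in the *Bcl2l1* promoter shown and in the promoter of *Mcl1*, on the reverse strand, and not in the other windows printed here. The AP-1 letters TGACTCA (5.2% of promoters) occurred in no member. The letters of CRE (1.79%), STAT (8.3%) and TATA box (13.6%) motifs were also searched and occurred in no member. A match is a run of letters and does not show binding, and its absence says only that these letters are not in the window.

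The steps around the family were described with 10 lists holding 79 genes, the members included, of which 69 were tested. Of these, 18 rose and 2 fell, beside the 9.73% and 7.97% of all tested genes given above. Without young set C, 4 rose and 0 fell. The same shares of all tested genes apply to every list count below. The plot of all list genes shows them by step.

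**Figure D4:**
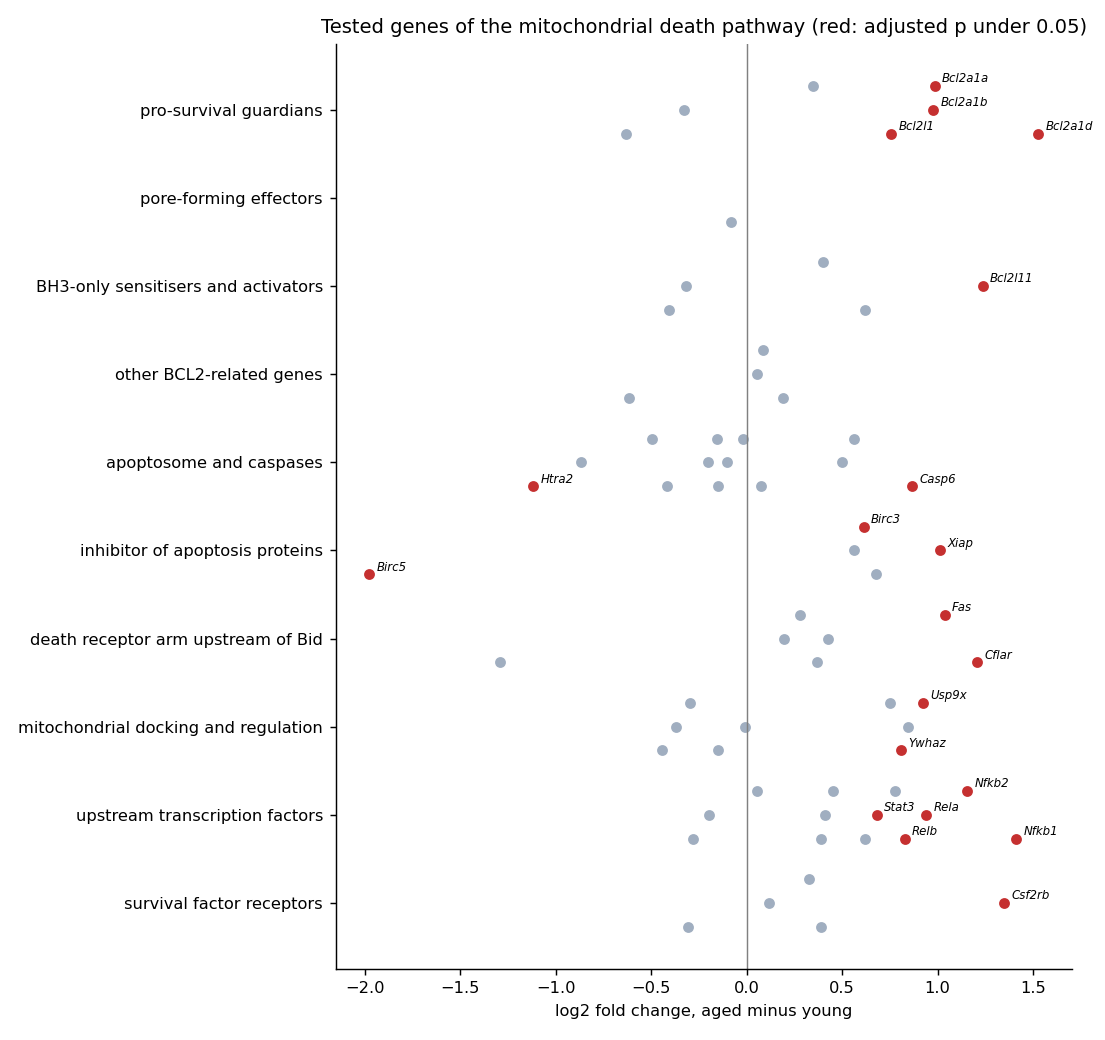
Log2 fold change (aged minus young) of each tested gene, by pathway step, red and named where the adjusted p was under 0.05 in edgeR; the vertical offset within a step only separates the points. Of the 69 genes, 18 lie in red to the right of 0 and 2, *Htra2* and *Birc5*, in red to the left.

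Apart from *Bcl2a1a*, none of the tested family genes beyond the members passed in edgeR. The BH3-only gene *Bmf* was too low to be tested. It received 10, 26 and 24 counts in young sets A to C and 6, 6 and 2 in the aged sets, without overlap. *Bok* and *Bcl2l14*, also too low to be tested, overlapped between the ages. *Bcl2l2*, which encodes the guardian BCL-W, was near the limit of detection at 0.71 ± 0.19 CPM in young cells (SD, n = 3; log2 fold change −0.33, adjusted p = 0.695 in edgeR). The BH3-only genes *Pmaip1* (NOXA) and *Bbc3* (PUMA), both targets of p53, had log2 fold changes of 0.40 (unadjusted p = 0.0436, adjusted p = 0.132 in edgeR) and 0.62 (adjusted p = 0.311). The *Bbc3* value ranged from 0.09 without aged set A to 1.06 when single samples were left out. *Pmaip1* was at 89.33, 103.3 and 82.1 CPM in young cells and at 107, 112.8 and 142.3 CPM in aged cells, without overlap. Among 4 other BCL2-related genes none passed in edgeR, the highest being *Bnip3* (0.19), a mitophagy receptor, and the lowest *Bcl2l12* (−0.61, unadjusted p = 0.0286).

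By count, though not by share of its list, the largest group of risen genes outside the family lay among the transcription factors known to act on it. There 5 of 13 rose and 0 fell (median log2 fold change 0.62), beside 9.73% and 7.97% of all tested genes. The shorter inhibitor of apoptosis list had 2 of 5 higher. Among the risen transcription factors were 4 subunits of NF-κB, the factor that induces *Bcl2a1*. *Nfkb1* was at 24.06, 19.95 and 19.16 CPM in young cells and at 53.31, 49.23 and 65.72 CPM in aged cells, a log2 fold change of 1.41 (adjusted p = 0.00242 in edgeR). *Nfkb2* rose by 1.15, *Rela* by 0.94 and *Relb* by 0.83 on the log2 scale (adjusted p = 0.00561, 0.00828 and 0.0102 in edgeR), and the samples of the 2 ages did not overlap for any of these 4. The remaining subunit gene, *Rel*, overlapped between the ages and did not pass (log2 fold change 0.39, adjusted p = 0.243 in edgeR). *Nfkb1* and *Nfkb2* passed whichever sample was left out, whereas *Rela* and *Relb* missed the threshold without young set C (adjusted p = 0.0605 and 0.0528).

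*Stat3*, which relays growth factor signals, rose by 0.68 on the log2 scale (adjusted p = 0.0423 in edgeR) and passed in only 1 of the 6 fits that left out a sample. *Trp53*, which encodes p53, an inducer of *Bax*, *Bbc3* and *Pmaip1*, averaged 49.5 ± 2.54 CPM over young samples and 51.4 ± 7.35 CPM over aged samples (SD, n = 3; log2 fold change 0.06, 95% interval −0.31 to 0.42). *Foxo3*, a known inducer of *Bcl2l11*, had the lowest value of the list and overlapped between the ages (log2 fold change −0.28, adjusted p = 0.528 in edgeR). The related *Foxo1* was at 0.78 and also overlapped (unadjusted p = 0.0215, adjusted p = 0.0844 in edgeR). *Atf4* (0.45) and *Ddit3* (0.41) had every aged sample above every young one but did not pass (adjusted p = 0.093 and 0.209 in edgeR). *Stat5a* (0.62) and *Stat5b* (−0.20) overlapped and did not pass.

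In the death receptor arm that feeds *Bid*, 2 of 7 tested genes rose and 0 fell, beside 9.73% and 7.97% of all tested genes. *Cflar*, which encodes FLIP, an inhibitor of caspase-8, was at 70.03, 46.52 and 59.65 CPM in young cells and at 140.5, 132.2 and 134.3 CPM in aged cells. The aged samples were close together and well above the young samples (log2 fold change 1.21, adjusted p = 0.00436 in edgeR), and the call held in all 6 fits that left out a sample. *Fas*, which encodes the receptor itself, rose by 1.04 on the log2 scale (adjusted p = 0.0413 in edgeR), a call that held in 2 of those 6 fits. *Fadd*, the adaptor between receptor and caspase-8, had the lowest value (log2 fold change −1.29, unadjusted p = 0.0111, adjusted p = 0.0569 in edgeR).

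Of the 5 inhibitor of apoptosis genes, 2 rose and 1 fell, beside 9.73% and 7.97% of all tested genes. *Xiap*, a direct caspase inhibitor, was at 8.906, 6.277 and 7.332 CPM in young cells and at 14.22, 17.96 and 13.34 CPM in aged cells (log2 fold change 1.01, adjusted p = 0.0173 in edgeR). *Birc3*, a target of NF-κB, rose by 0.61 on the log2 scale (adjusted p = 0.0338 in edgeR). *Birc5*, which encodes survivin and is best known as a gene of dividing cells, fell by 1.98 on the log2 scale (adjusted p = 0.0371 in edgeR). Of 7 proliferation markers, *Mcm2*, *Mcm6*, *Cdk1* and *Ccnb1* were lower and *Mki67* was higher (log2 fold change 1.13, adjusted p = 0.0412 in edgeR), the last in 0 of the 6 fits that left out a sample. In those fits *Mcm2* passed in 6, *Mcm6* and *Cdk1* in 4 each and *Ccnb1* in 2. The summed level of the 7 markers spanned 116 to 194 CPM across young samples, above the 97.9 to 111.8 CPM of the aged samples. Their part in the fall of *Birc5* was not tested. When each of the 6 samples was left out in turn, *Xiap* passed in 4 fits, *Birc5* in 3 and *Birc3* in 1. With the set letter as a replicate block, *Birc3* and *Birc5* did not pass (adjusted p = 0.0513 and 0.063 in edgeR).

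Downstream of the pore, 1 of 13 tested apoptosome and caspase genes rose and 1 fell. These counts were near the 9.73% and 7.97% of all tested genes. *Casp6*, an executioner caspase, rose by 0.87 on the log2 scale (adjusted p = 0.0191 in edgeR), and *Htra2*, a mitochondrial protease released with cytochrome c, fell by 1.12 (adjusted p = 0.0159 in edgeR). Both calls held in 3 of the 6 fits that left out a sample. Among 9 genes of mitochondrial docking and regulation, the deubiquitinase *Usp9x*, which stabilises MCL1 protein, rose by 0.92 and *Ywhaz*, whose 14-3-3 protein sequesters BAD, rose by 0.81 on the log2 scale (adjusted p = 0.0373 and 0.0346 in edgeR), with calls that held in 1 and 2 of those 6 fits. The lowest of that list was *Bag1*, a BCL2-binding co-chaperone (log2 fold change −0.44, unadjusted p = 0.0207, adjusted p = 0.0826 in edgeR).

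Among 5 survival factor receptors, *Csf2rb*, the shared signalling chain for GM-CSF, IL-3 and IL-5, rose by 1.35 on the log2 scale (adjusted p = 0.024 in edgeR). It was at 331.9, 127.6 and 134.1 CPM in young cells and at 550.2, 459.2 and 502.3 CPM in aged cells. Young set A stood apart from the other young samples, and the call held in 2 of the 6 fits that left out a sample. *Il3ra* had the lowest value (log2 fold change −0.31, adjusted p = 0.58 in edgeR).

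Neutrophils also express *Bcl2a1* and *Mcl1*, and the sort did not include an antibody against Ly6G. Of 15 neutrophil markers, 13 were in the table and 12 were tested. *Cd177*, *Cxcr2*, *Lcn2* and *Retnlg* rose (log2 fold change 1.62, 1.13, 0.99 and 0.85), beside 9.73% of all tested genes. When each sample was left out in turn, these calls held in 5, 2, 1 and 1 of 6 fits, and *Cxcr2* overlapped between the ages. With the set letter as a replicate block, *Cd177* alone of these 4 passed. The summed neutrophil level was 578.8, 1027 and 889 CPM in young sets A, B and C and 1427, 790.1 and 1432 CPM in the aged sets, so the ages overlapped. Aged set B had a lower sum than 2 of the young samples. In that sample *Bcl2a1b*, *Bcl2a1d*, *Bcl2l1* and *Bcl2l11* were above every young sample. So were *Cd177* (40.7 CPM against at most 22.66), *Lcn2* (80.69 against at most 78.34) and *Retnlg* (135.5 against at most 131.9). *Cxcr2* was within the young range (19.36 against at most 20.53). Aged set B was also the lowest of the aged samples in *Bcl2a1b*, *Bcl2a1d* and *Mcl1*. *Ly6g*, the defining neutrophil marker, spanned 6.14 to 10.91 CPM across young samples and 6.18 to 9.6 CPM across aged samples, and *Camp* and *Mpo* were not among the genes of the table. The part of neutrophil RNA in the rise of the *Bcl2a1* genes was not tested.

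Macrophage markers summed to between 29750 and 44410 CPM per young sample and between 22800 and 27820 CPM per aged sample, without overlap, with 2 of 10 markers higher and 1 lower. *Lyz2* made up most of this sum, and the other 9 markers summed to between 5568 and 5645 CPM per young sample and between 6436 and 6902 CPM per aged sample, the opposite direction. Erythroid markers were lower in aged cells, 4 of 5 passing, with sums of 152.6 to 490.1 CPM against 41.82 to 152 CPM. Each of those 4 calls held in 2 or 3 of the 6 fits that left out a sample, and none held without young set C. B cell markers summed to 4.62 to 12.9 CPM in young and 2.61 to 4.08 CPM in aged samples. The 1 tested marker was lower, a call that held in 1 of the 6 fits that left out a sample. Mast cell and eosinophil markers summed to 26.82 to 96.74 CPM in young samples and 67.46 CPM in aged set A, but to 1.34 and 2.22 CPM in aged sets B and C. Dendritic cell markers summed to 65.49, 27.51 and 22.72 CPM in young sets A to C and 107.6, 37.32 and 50.03 CPM in the aged sets, so the ages overlapped and set A was highest in both, and 0 of 7 tested markers passed in edgeR (1 at an unadjusted p under 0.05, median log2 fold change 0.62). The part of these cells in the results was not tested. Aged set B was also highest in fibroblast and endothelial markers (138.1 CPM against at most 57.81 in any other sample) and stood apart in keratinocyte transcripts, with 126.3 CPM over the 6 markers against at most 2.03 CPM in any other sample. Keratinocyte sums were higher in the other aged samples too, at 2.03 and 1.73 CPM in sets A and C against at most 0.88 CPM in young samples, and *Krt14*, the 1 tested marker, passed as higher (adjusted p = 0.0259 in edgeR, 4 of 6 fits that left out a sample). The endothelial marker *Pecam1*, which monocytes also express, rose from 10.12, 7.157 and 6.803 CPM to 24.38, 25.09 and 28.29 CPM (log2 fold change 1.69, adjusted p = 0.0022 in edgeR) and passed in all 6 of those fits. Leaving out aged set B changed the call of no member, the log2 fold changes of the 4 risen members being 1.24 for *Bcl2l11*, 1.66 for *Bcl2a1d*, 1.08 for *Bcl2a1b* and 0.76 for *Bcl2l1*.

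How far each call rests on the choice of fit is shown by the plot of adjusted p across fits. *Bcl2l11* passed in all 13. *Bcl2a1b* and *Bcl2a1d* missed the threshold only without young set C, with an adjusted p of 0.0538 and 0.0523, while their log2 fold changes there were 0.98 and 1.48. *Bcl2l1* missed it in 3 fits and *Bad* passed in 2.

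**Figure D5:**
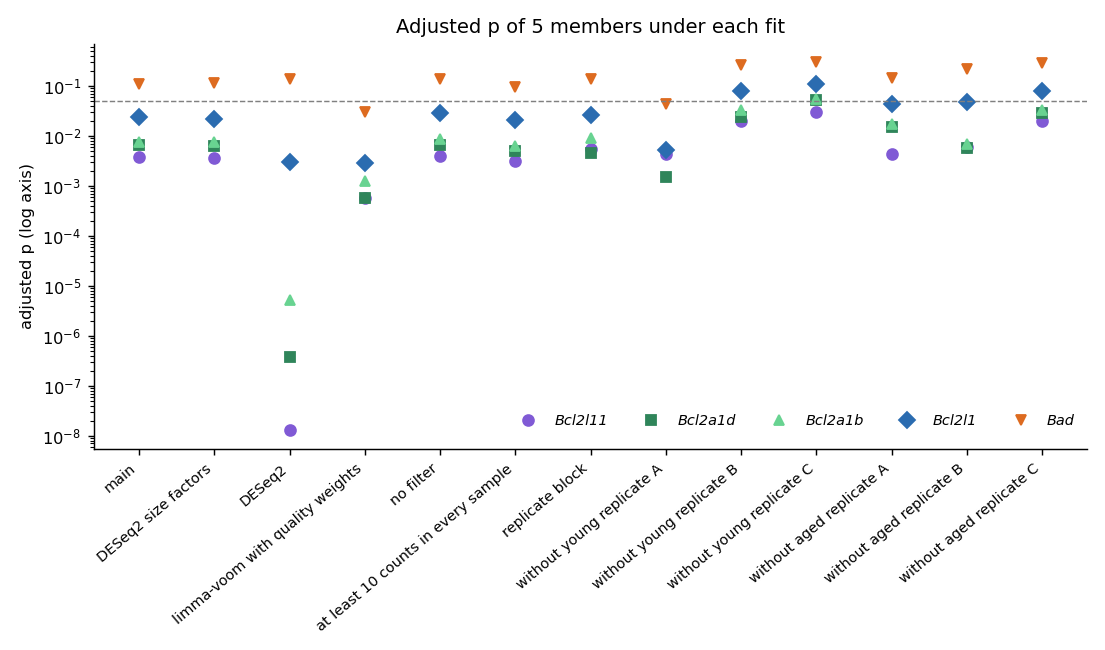
Adjusted p (log axis) of *Bcl2l11*, *Bcl2a1d*, *Bcl2a1b*, *Bcl2l1* and *Bad* for aged against young under 13 fits, from the edgeR fit of all 6 samples (leftmost) through other scalings, tools and filters to fits that each leave out 1 sample; the dashed line marks 0.05. *Bcl2l11* lies below the line throughout, and without young set C the adjusted p of each of the 5 genes was the highest of its edgeR fits.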

How the data were processed

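Bulk RNA-seq libraries (SMART-Seq, a kit that does not mark strand) of 6 samples were used. Per the submitters' notes, the authors aligned reads with STAR 2.7.3a in Partek Flow to mm10 with Ensembl transcripts release 102 and deposited an expected count for each gene, not normalized, for genes with a total of at least 10; the strand setting is not given in the sources used here. A table of the authors' normalized counts with their own fold changes and p-values, and a notes file, were not used for results.

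Expected counts were rounded and fitted in edgeR 4.0.16 (R 4.3.3; TMM, filterByExpr, glmQLFit, age only) over 11878 genes with Benjamini-Hochberg adjustment; a gene passed at an adjusted p under 0.05. CPM used TMM-scaled library sizes (TMM factors 0.904 to 1.11). Standard errors are the log2 fold change over the root of F, and intervals use 95%. Levels per kilobase used the longest coding transcript of GENCODE M21 (mm10), whose gene positions matched those of the deposited table. The script was tested on simulated data.

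Alternatives were DESeq2 1.42.0, DESeq2 size factors, limma-voom (limma 3.58.1) with quality weights, other filters, a 2-fold threshold, the set letter as a replicate block, and leaving out each sample. Members and lists were chosen with earlier results of these data known. Text names the members, the *Bcl2a1* copies, up to 6 passing genes of each pathway list with its highest and lowest value, the sorted markers and passing neutrophil markers. Where outside this rule, *Bcl2l2*, *Bmf*, *Bok*, *Bcl2l14*, *Pmaip1*, *Bbc3*, *Fadd*, *Trp53*, *Rel*, *Foxo1*, *Atf4*, *Ddit3*, *Stat5a*, *Stat5b*, *Lyz2*, *Pecam1*, *Krt14* and the proliferation markers were chosen after their values were seen. The printed promoters and motifs were chosen after their values or sequences were seen. All 6 libraries were distinct.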

Additional observations from a re-analysis of the deposited data

How the results depend on the processing

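Of 108 values of the 9 tested members under alternatives, 100 kept their direction and side of the threshold. The count of genes was 1933 higher and 1713 lower in limma-voom and 545 and 499 with a change over 2-fold, and it ranged from 151 to 1574 higher and from 67 to 1128 lower when 1 sample was left out, lowest without young set C. Members that rose numbered 2 with a change over 2-fold and 1 to 4 when a sample was left out. The number of members that fell was 1 in limma-voom (*Bad*, −0.48) and 0 to 1 when a sample was left out. Pathway genes numbered 26 higher and 8 lower in limma-voom and 8 higher and 2 lower with a change over 2-fold, and ranged from 4 to 18 higher and 0 to 4 lower when a sample was left out. Over the same fits, the log2 fold change was 0.62 to 0.96 for *Bcl2l1*, 0.88 to 1.08 for *Bcl2a1b*, 1.32 to 1.84 for *Bcl2a1d*, 1.03 to 1.26 for the summed *Bcl2a1* copies, −0.52 to −0.33 for *Bad* −0.16 to 0.011 for *Bax* (above 0 without young set C), −0.49 to 0.018 for *Foxo3* and −0.62 to 0.045 for *Il3ra* (both above 0 without young set B). Other causes of these shifts were not tested.

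Deviations of same-letter samples correlated at 0.181 for A, −0.021 for B and 0.114 for C. The 2 A samples correlated best with each other, while young B correlated best with aged C and young C with aged B, so the data hint at a link for A but the letters were not taken to pair the samples. With the replicate block, 1202 genes rose and 912 fell, and of the pathway genes 17 rose and 1 fell in place of 18 and 2. The genes whose calls were lost there included *Birc3* (adjusted p = 0.0513) and *Birc5* (0.063), leaving 1 inhibitor of apoptosis gene higher and 0 lower, and the neutrophil markers *Cxcr2*, *Lcn2* and *Retnlg* (0.0596, 0.072 and 0.0556 in edgeR). The block changed the call of no member, with a log2 fold change of 1.22 for *Bcl2l11*.

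The log2 difference of the guardian sum was 0.61 per kilobase, 0.37 without the *Bcl2a1* members and 1.09 without *Mcl1*. That of the pro-death sum was 0.03 per kilobase and 0.39 on CPM. That of the ratio was 0.58, and 0.050 on CPM, 0.33 without the *Bcl2a1* members and 1.06 without *Mcl1*. Depth limited *Bak1* alone among the members to too few counts for a test. As alternatives added after seeing the data, the log2 difference of the macrophage marker sum turned from −0.47 to 0.24 without *Lyz2*, and on CPM the age difference of the *Mcl1* share went from −11.9 to −5.82 percentage points and that of the *Bcl2a1* members from 11.5 to 5.02.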
